A study of Mus musculus with 4 samples.

Results

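The expression and chromatin of 7 monocyte lineage genes were followed in single nuclei of mouse bone marrow. They were F13a1, Ly86, Ccr2, Fn1, Ms4a6c, Klf4 and Lyz2, which are 7 of the 32272 genes counted, together with the 117 of 174339 chromatin peaks that lay within 50 kb of their start-site intervals. The genes are known from monocytes and their precursors, but they were chosen with earlier results of these data known, and each matched 1 gene row by name. None of the 7 was used in the clustering or in the marker lists that named the cell classes below. The peaks in their windows were left out of the clustering as well. The 7 could still be among the leading genes of a cluster, which the naming rule also reads.

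The nuclei came from bone marrow sorted as Lin-cKit+ (no lineage antigens, cKit on the surface), which enriches hematopoietic stem and progenitor cells (HSPCs). They were taken from C57BL/6 male mice, 8 weeks old, whose teeth carried a silk ligature for 14 days (Lig, which induces periodontitis) or were left unligated for 14 days (Ctrl). Each group was 1 pool of 5 mice, with 1 RNA and 1 ATAC library, so the 4 label groups held 1 sample each. The lineage antibodies included CD11b and Gr-1, which mature monocytes and neutrophils carry, so the gate is meant to leave these out. How many of them remained was not tested. The matrix pools the samples, its barcodes end in suffix 1 or 2, and no label ties a suffix to Ctrl or Lig. The suffixes are called library 1 and library 2 here. They were assigned to no group, no difference between them was credited to the ligature, and no test between groups was made.

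Monocytes arise in bone marrow from granulocyte-monocyte progenitors (GMPs) through committed monocyte progenitors (cMoPs), under the factors PU.1 and IRF8 and with signals through the receptor CSF1R. Precursors of neutrophils and of conventional dendritic cells leave the same branch, and many genes named for monocytes are shared with these neighbours. F13a1 encodes the A subunit of a coagulation transglutaminase, Fn1 the matrix protein fibronectin and Lyz2 the lysozyme of myeloid cells. Ccr2 is the chemokine receptor with which monocytes leave the marrow. Ly86 (MD-1) is the partner of the Toll-like receptor homologue CD180, Ms4a6c belongs to the MS4A family of membrane proteins, and Klf4 is a zinc finger transcription factor needed for monocyte differentiation.

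In GRCm38 with GENCODE M21 annotation, F13a1 lies at chr13:36867178-37050244 on the minus strand and Ly86 at chr13:37345208-37419036 on the plus strand. Ccr2 lies at chr9:124101950-124113557 and Ms4a6c at chr19:11469366-11482192, both on the plus strand. Fn1 (chr1:71585520-71653200), Klf4 (chr4:55527143-55532466) and Lyz2 (chr10:117277331-117282321) are read from the minus strand. Other genes start inside 6 of the 7 windows, among them Lyz1 beside Lyz2, so a peak in a window need not belong to the gene it is listed under.

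After filtering, library 1 held 5905 nuclei with a median of 1641 UMIs (unique molecular identifiers, counted RNA molecules), and library 2 held 7714 nuclei with a median of 1516.5. The median number of genes seen per nucleus was 636 in library 1 and only 410 in library 2. The ribosomal RNA locus took 43.0% and 53.2% of the UMIs, so RNA levels are given per 1000000 UMIs outside that locus (CPM). Of the barcode sequences of kept nuclei, 72 occurred in both libraries. Clustering on RNA and ATAC gave 20 clusters, of which 14 were named from marker lists that hold none of the 7 genes, in 13 classes. A name ending in -like means only that its markers were raised. The cluster of interest, cMoP-like, had 68 nuclei in library 1 and 81 in library 2, which was 1.15% (0.90 to 1.46%) and 1.05% (0.83 to 1.30%) of the kept nuclei. It raised 7 monocyte markers, Csf1r, Cx3cr1, Tgfbi, Mpeg1, Ctss, S100a4 and Emilin2. The marker Ly6c2 did not set it apart, with ratios over the other nuclei of 1.66 and 1.28, and Cd300e had 0 UMIs in the cMoP-like nuclei of both libraries. Summed markers of macrophages were at 54.6 and 79.3 CPM there, from 3 and 4 UMIs, with C1qa, C1qb, Cd5l and Cd163 at 0 UMIs in both libraries. This sum, though from few UMIs, was the highest of the classes and clusters in which it was taken, with GMP-like nuclei at 31.9 and 32.6 CPM. Summed markers of conventional dendritic progenitors (cDCP) were at 328 and 337 CPM in cMoP-like nuclei. They were at 1666 and 1618 CPM in cDCP-like and 31.9 and 15.4 CPM in GMP-like nuclei. The 6 GMP markers summed to 1729 and 2677 CPM in cMoP-like nuclei, and the 14 cMoP markers to 2130 and 2161.5 CPM. In library 2 the GMP sum was thus the larger in this class. GMP-like nuclei had 8414 and 14818 CPM of the GMP markers and 472 and 855 CPM of the cMoP markers. Intervals in brackets are exact 95% intervals, Poisson for counts and binomial (Clopper-Pearson) for shares and ratios. They hold counting error alone and say nothing of how mice vary.

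The 7 genes together made up 5753 CPM (5136 to 6423) in cMoP-like nuclei of library 1 and 3788 CPM (3269 to 4364) in those of library 2. This was 7.10 times (6.31 to 7.95) the level of all other nuclei in library 1 and 4.31 times (3.71 to 4.99) in library 2. Fn1, Ccr2 and Lyz2 reached 4-fold in both libraries, 3 of the 7 genes, against 0.859% of the 8385 genes that had 50 UMIs or more per library. F13a1, Ly86, Ms4a6c and Klf4 did not. Since the 7 were chosen with earlier results known, this count is a description. The median ratio of the 7 genes was 4.11 in library 1 and 4.93 in library 2, where the median of all genes tested was 0.827 and 0.870. Fn1 met the minimum of 50 UMIs in library 2 only with its cMoP-like UMIs, which were 37 of 73, so its count among the genes past 4-fold was partly set by that minimum.

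**Figure D1:**
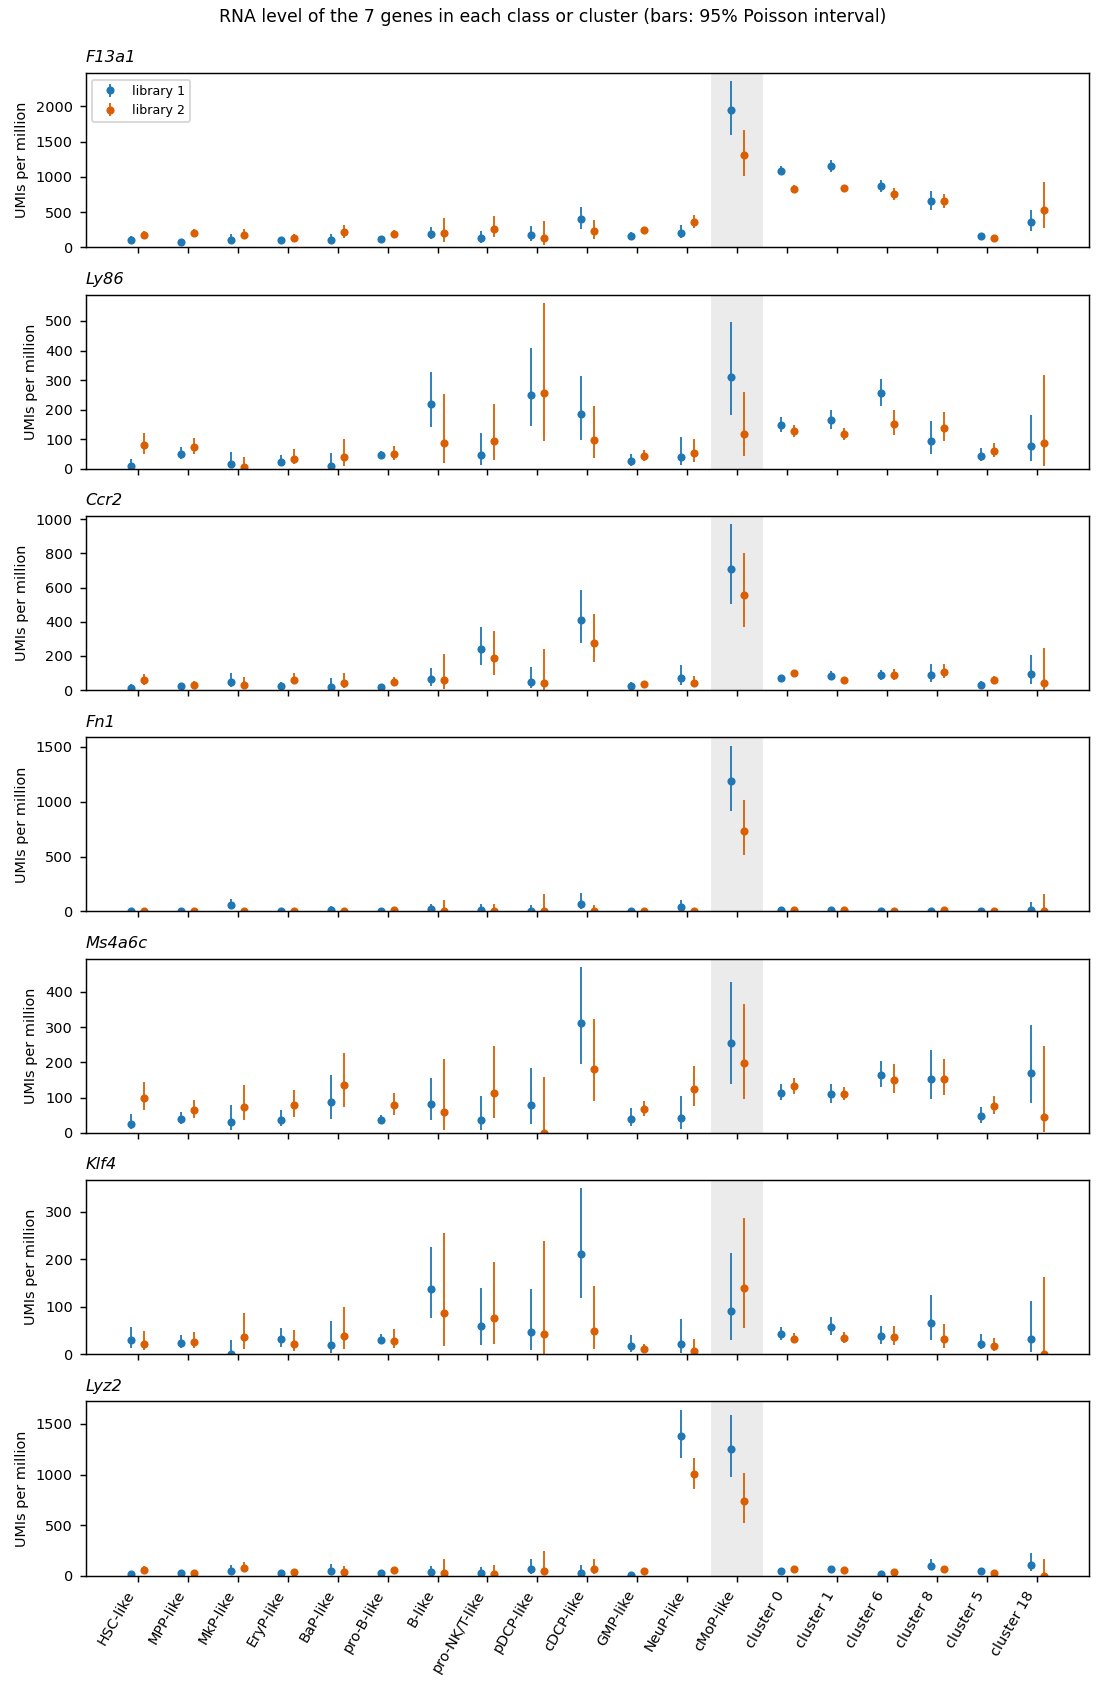
RNA level of each gene (CPM, linear axis from 0) in the 13 named classes and 6 unnamed clusters, with library 1 in blue and library 2 in orange, bars giving the exact Poisson interval and the cMoP-like column shaded. Fn1 stood out in 1 column, Lyz2 in 2 (NeuP-like and cMoP-like), and F13a1 in cMoP-like nuclei with a second level of 652 to 1150 CPM in clusters 0, 1, 6 and 8.

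Fn1, the fibronectin gene, was the most restricted of the 7 by this ratio. Its level in cMoP-like nuclei was 1183 CPM (913 to 1508) from 65 UMIs in library 1, and 734 CPM (517 to 1011) from 37 UMIs in library 2. In all other nuclei together it was 9.98 and 6.18 CPM, a ratio of 119 (81.9 to 172) and 119 (72.9 to 193). The cMoP-like class, with 0.937% and 0.859% of the UMIs outside the ribosomal locus, carried 52.8% and 50.7% of the Fn1 UMIs. The next class in order, cDCP-like (progenitors of conventional dendritic cells), had 5 UMIs or 70.6 CPM (22.9 to 165) in library 1 and 0 UMIs in library 2, which allows up to 49.0 CPM. GMP-like nuclei had 0 UMIs in library 1, which allows up to 10.6 CPM, and 1 UMI in library 2. The step from cMoP-like to the next class lay outside the intervals in both libraries, and the order of the classes below it could not be resolved.

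Lyz2, the lysozyme gene, was high in 2 classes. NeuP-like nuclei (neutrophil progenitors) had 1385 CPM (1161 to 1641) in library 1 and 1003 CPM (858 to 1165) in library 2. The cMoP-like nuclei had 1256 CPM (977 to 1590) and 734 CPM (517 to 1011), and the intervals of the 2 classes overlapped in both libraries. All other classes lay below 110 CPM in each library, with GMP-like nuclei at 7.09 CPM (0.859 to 25.6) and 46.3 CPM (30.5 to 67.4). The 8 neutrophil markers summed to 528 and 1031 CPM in cMoP-like nuclei, beside 355 and 1127 CPM in GMP-like nuclei, and to 35522 and 37631 CPM in NeuP-like nuclei. Lyz2 and Lyz1 are neighbouring copies, and reads that match both genes could be divided or dropped in counting. Lyz1 had only 1 UMI over all nuclei of library 1 and 0 over those of library 2, so its 0 UMIs in cMoP-like nuclei say nothing about this.

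Ccr2, the monocyte chemokine receptor, was shared with dendritic and lymphoid classes. It was highest in cMoP-like nuclei, at 710.0 CPM (505 to 971) in library 1 and 555 CPM (369 to 802) in library 2. The cDCP-like nuclei came next with 409.5 CPM (274 to 588) and 278 CPM (162 to 445), and pro-NK/T-like nuclei followed with 238 CPM (146 to 368) and 189 CPM (90.6 to 348). These 3 classes took the same order in both libraries, but the intervals of neighbours overlapped. GMP-like nuclei were at 21.3 CPM (7.81 to 46.3) and 36.04 CPM (22.3 to 55.1), with intervals far below those of cMoP-like nuclei. Over all other nuclei the ratio was 12.97 (9.05 to 18.1) and 8.23 (5.40 to 12.1).

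F13a1, the transglutaminase gene, gave 56.9% and 56.7% of the UMIs of the 7 genes over all nuclei, most of them outside the cMoP-like class. Its level was 1948 CPM (1596 to 2354) in cMoP-like nuclei of library 1 and 1309 CPM (1012 to 1665) in those of library 2. Clusters 1 and 0, which no marker list named, followed with 1150 CPM (1069 to 1235) and 837 CPM (786 to 890) in cluster 1, and 1087 CPM (1021 to 1157) and 829 CPM (776 to 886) in cluster 0. Next were cluster 6, at 866 CPM (784 to 953) and 752 CPM (666 to 846), and cluster 8, at 652 CPM (524 to 803) and 654 CPM (557 to 763). Only the step from cMoP-like to cluster 1 lay outside the intervals in both libraries. Clusters 0, 1, 6 and 8 held 79.1% and 77.9% of the F13a1 UMIs with 35.3% and 46.3% of the nuclei, whereas the cMoP-like nuclei held 3.74% and 2.19%. Leading genes of these clusters by fold were Fkbp1b and Tnf in cluster 0, 1700017D01Rik in cluster 1, Gm26597 and Sema4c in cluster 6 and Cmtm3 in cluster 8. Cluster 6 also raised the cMoP markers Csf1r, Cx3cr1 and Mpeg1, but the mean log2 ratio of the whole list was -0.36 there and it was left unnamed. GMP-like nuclei had 167 CPM (122 to 222) and 247 CPM (208 to 291) of F13a1, below the intervals of those clusters. Clusters 0, 1 and 8 themselves carried GMP markers, whose 6 genes summed to 3409 to 5561 CPM there, beside 8414 and 14818 CPM in GMP-like nuclei. Cluster 6 had 1811 and 2529 CPM of these markers, and cMoP-like nuclei had 1729 and 2677 CPM. Multipotent-progenitor-like (MPP-like) nuclei had 80.1 CPM (58.0 to 108) and 206 CPM (165 to 254).

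Ly86, the partner of CD180, was raised in several classes with no clear leader. In library 1 it was highest in cMoP-like nuclei, at 309 CPM (180 to 496) from 17 UMIs, while in library 2 its 6 UMIs gave 119 CPM (43.7 to 259) and rank 5 of 19. Plasmacytoid dendritic progenitor-like (pDCP-like) nuclei had 251 CPM (144 to 408) and 258 CPM (94.6 to 561), and cluster 6 had 256 CPM (212 to 305) and 152 CPM (115 to 197). B-like nuclei were at 219.5 CPM (141 to 327) in library 1 and 87.1 CPM (17.96 to 254) in library 2. None of the 18 steps between neighbours in the order lay outside the intervals in both libraries. The ratio over other nuclei was 3.20 (1.85 to 5.18) in library 1, and 1.30 (0.474 to 2.84) in library 2, where the interval held 1.

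Ms4a6c was highest in cDCP-like nuclei in library 1, at 311 CPM (195 to 470.3), and in cMoP-like nuclei in library 2, at 198 CPM (95.1 to 365). The other value of each class was 180 CPM (89.7 to 322) for cDCP-like in library 2 and 255 CPM (139 to 428) for cMoP-like in library 1. Clusters 6, 8, 0 and 1 lay between 110 and 163 CPM in both libraries. Ratios of cMoP-like to other nuclei were 3.28 (1.78 to 5.55) and 1.90 (0.908 to 3.52). Klf4, the transcription factor, had only 5 and 7 UMIs in cMoP-like nuclei, or 91.0 CPM (29.6 to 212) and 139 CPM (55.8 to 286). In cDCP-like nuclei it was at 212 CPM (119 to 349) and 49.0 CPM (10.1 to 143), and in B-like nuclei at 137 CPM (76.8 to 226) and 87.1 CPM (17.96 to 254). Over all other nuclei its ratio was 2.35 (0.756 to 5.57) in library 1 and 4.93 (1.95 to 10.4) in library 2. In EryP-like nuclei Klf4 was at 31.5 CPM (15.7 to 56.3) and 21.6 CPM (7.01 to 50.4), below the cMoP-like interval in library 2 alone. Which of the cMoP-like, cDCP-like and B-like classes had the most Klf4 could not be told at this depth.

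Between genes, levels were compared per kb, and the order depended on whether the whole gene span or its exons were taken. Lyz2 led in cMoP-like nuclei on both scales, with 252 and 147 CPM per kb of span and 954 and 558 CPM per kb of exon. F13a1, whose span of 183 kb is the longest of the 7, had 10.6 and 7.15 CPM per kb of span, below the 61.2 and 47.8 of Ccr2. Per kb of exon F13a1 came second, at 289 and 194, above the 105 and 82.1 of Ccr2. Without division by length F13a1 led, at 1948 and 1309 CPM in cMoP-like nuclei, above Lyz2 at 1256 and 734 CPM. UMIs count molecules, and whether their number grows with gene length was not tested. Since it is also not stated how intronic reads were counted, the order between genes is given on each scale as a description.

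The shares of nuclei with a UMI were compared at equal depth, with each nucleus thinned to 500 UMIs outside the ribosomal locus. This left out 15 and 36 cMoP-like nuclei. EryP-like nuclei (erythroid progenitors) were assumed to lack these genes and served as the reference for free RNA. Whether their UMIs are free RNA or low expression was not tested. Their medians were 977.5 and 625.5 UMIs outside the locus, against 737.5 and 547 in cMoP-like nuclei. F13a1 was seen in 58.5% (44.1 to 71.9%) and 40.0% (25.7 to 55.7%) of thinned cMoP-like nuclei, and in 4.93% (2.79 to 8.01%) and 5.31% (2.77 to 9.09%) of EryP-like nuclei. Lyz2 reached 49.1% (35.1 to 63.2%) and 26.7% (14.6 to 41.9%), Fn1 34.0% (21.5 to 48.3%) and 22.2% (11.2 to 37.1%) with no EryP-like nucleus of 304 and of 226 (up to 0.987% and 1.33%), and Ccr2 20.8% (10.8 to 34.1%) and 26.7% (14.6 to 41.9%). For these 4 genes the cMoP-like intervals lay above the EryP-like ones in both libraries. For Ly86 and Ms4a6c this held in library 1 alone, with 15.1% (6.75 to 27.6%) and 11.3% (4.27 to 23.03%), whereas 6.67% (1.40 to 18.3%) and 8.89% (2.48 to 21.2%) in library 2 overlapped the EryP-like shares. Klf4, at 3.77% (0.460 to 12.98%) and 11.1% (3.71 to 24.1%), had intervals that overlapped the EryP-like shares of 1.64% (0.536 to 3.796%) and 1.33% (0.275 to 3.83%), in library 2 by little. Before thinning, the shares in cMoP-like nuclei ran from 5.88% for Klf4 to 70.6% for F13a1 in library 1, and from 7.41% for Klf4 and Ly86 to 44.4% for F13a1 in library 2.

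Several of the genes were often seen in the same nucleus. Without thinning, at least 2 of the 7 genes were seen in 70.6% of cMoP-like nuclei of library 1 and in 54.3% of those of library 2, and at least 3 in 42.6% and 22.2%. In cDCP-like nuclei at least 3 were seen in 15.3% and 1.01%. In clusters 0, 1 and 6 the shares with at least 3 were 2.33 to 6.77%, and in GMP-like nuclei 0% and 0.144%, at medians of 925 and 788.5 UMIs outside the locus. Cluster 0, for example, had 22.3% and 15.4% of nuclei with at least 2 of the genes. Such shares depend on how often each gene is seen alone and on depth. Whether the genes occurred together more often than that was not tested.

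**Figure D2:**
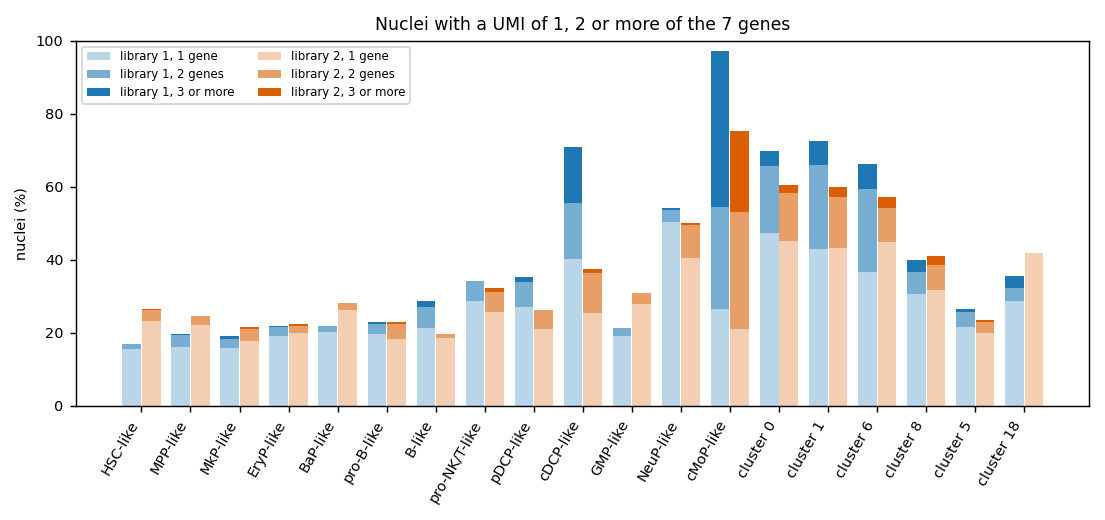
Share of nuclei (%) with a UMI of 1, 2, or 3 or more of the 7 genes, stacked, in each class and cluster, with library 1 in blue and library 2 in orange and darker shades for more genes. The darkest part was largest in cMoP-like nuclei, 42.6% and 22.2%, while in clusters 0, 1 and 6 nuclei with 1 gene were the largest part, 36.6 to 47.4% of nuclei.

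How the UMIs of the 7 divided among them also differed between classes. Fn1 took 20.6% and 19.4% of these UMIs in cMoP-like nuclei, 17.9% and 0% in MkP-like nuclei (megakaryocyte progenitors, 7 and 0 Fn1 UMIs), and 0.924% and 0.719% in cluster 0, where F13a1 took 71.6% and 64.2%. Lyz2 took 76.6% and 63.2% in NeuP-like nuclei, and Ccr2 25.4% and 30.9% in cDCP-like nuclei. The 7 genes summed to only 260.2 and 372 CPM in EryP-like nuclei and to 207 and 493 CPM in HSC-like nuclei, so this low level was higher in library 2 while the cMoP-like level was lower there. What part free RNA has in the difference between libraries was not tested. Over all nuclei, the intervals of 3 of the 7 genes (Fn1, Ms4a6c and Klf4) did not overlap between the libraries, against 51.6% of all genes tested.

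**Figure D3:**
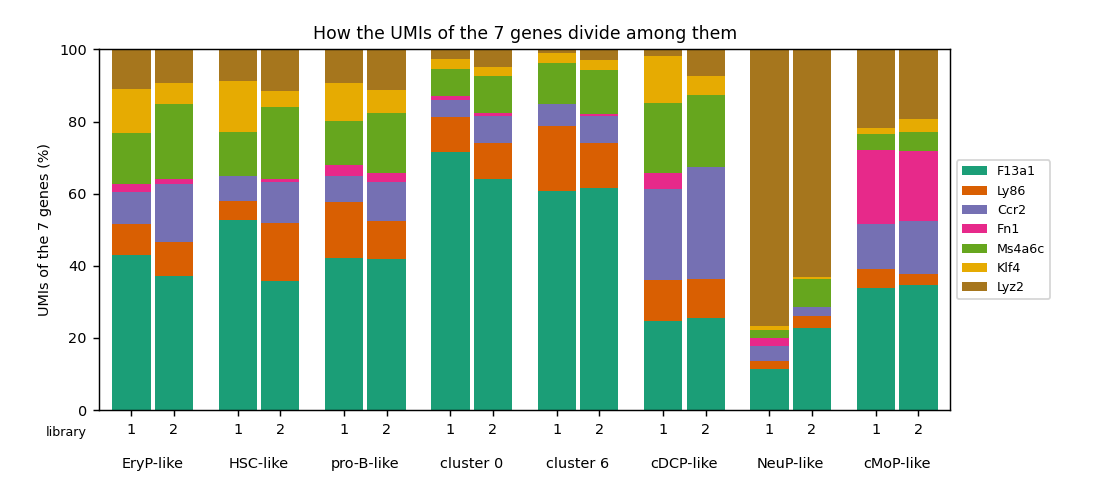
Division of the UMIs of the 7 genes among them (%, stacked to 100), in EryP-like, HSC-like, pro-B-like, cDCP-like, NeuP-like and cMoP-like nuclei and clusters 0 and 6, with 1 bar per library. Fn1 took 20.6% and 19.4% of the cMoP-like bars and at most 4.39% of the other bars drawn, Lyz2 filled most of the NeuP-like bars and F13a1 most of those of clusters 0 and 6.

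Genes with the most similar pattern were sought over 34 points, which were the 17 classes or clusters with at least 50 nuclei per library, in each library, among 4669 genes with the 7 themselves left out. The points share libraries and differ in depth, and the correlations of log2(CPM + 10) are descriptions. Nearest to F13a1 were Csf1r (Pearson's r = 0.81), Nrg1 (0.80) and Rassf4 (0.79). Nearest to Lyz2 were Cybb (0.85), Chil3 (0.84) and Itgam (0.82). Ccr2 was most like Ahnak (0.87), Vim (0.82) and Psap (0.74), Fn1 like Lamp1 (0.75), Dleu2 (0.67) and Arpc2 (0.67), and Ms4a6c like Vim (0.78), Pmaip1 (0.76) and Rassf4 (0.76). Klf4 came nearest to Acox3 (0.72), Ahnak (0.72) and Gng2 (0.72), and Ly86 to Gm42031 (0.81), Gm43305 (0.80) and 5031439G07Rik (0.78). Among the 7, Fn1 was nearest to Ccr2 (0.67) and Ms4a6c to F13a1 (0.76), about as near as the genes just named. F13a1 and Ly86 were each other's nearest (0.77). These 2 genes lie on chromosome 13 with start-site intervals 295 kb apart.

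Other genes of the monocyte program were read from a list of 49, of which 34 had at least 50 UMIs in each library. In cMoP-like nuclei 10 of the 34 were at 4-fold or more over other nuclei in both libraries, beside 0.859% of all genes. The 34 held the 7 markers that had named the cluster, 4 of which are among the 10, and without these markers 6 of 27 passed. The median ratio was 3.06 and 3.16 over the 34, and 1.74 and 2.21 over the 27. Of the transcription factors, 3 of 11 passed: Cebpb (7.86 and 4.40 times), Nr4a1 (4.43 and 4.25) and Irf5 (8.24 and 4.05). Irf5 rested on 6 and 2 UMIs, with intervals of 2.93 to 18.8 and 0.479 to 15.3. Irf8 and Spi1 (the gene of PU.1) did not, with Irf8 at 0.97 and 0.59 times and Spi1 at 1.51 and 1.58 times. Gfi1, a repressor of the monocyte program in neutrophil precursors, had 0 UMIs in cMoP-like nuclei of both libraries. With intervals of the ratio up to 3.97 and 4.25, no lower level was detectable at this depth. Of the receptors, 2 of 8 passed, Csf2rb (5.92 and 4.64) and Itgam (7.70 and 4.21), while Csf1r was at 3.76 and 4.06 times. Itgam encodes CD11b, an antigen of the sort. Chemokines and secreted or lysosomal products gave 4 of 6, Tgfbi (27.1 and 16.5), Lgals3 (26.9 and 8.10), Ctss (6.04 and 10.1) and Emilin2 (7.49 and 11.4). The chemokine Ccl9 (3.55 and 2.21) and the chitinase-like Chil3 (5.75 and 3.70) did not pass. No family neighbour of the 7 genes passed, 0 of 4. The tenth gene was S100a4 (23.7 and 22.6 times), the only one of the 34 that met the minimum of 50 UMIs in library 2 just with its cMoP-like UMIs, 9 of 55, so its place among the 10 was partly set by that minimum. The naming markers in the list were Csf1r, Cx3cr1, Tgfbi, Mpeg1, Ctss, S100a4 and Emilin2, and their ratios are descriptions of the cluster.

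Open chromatin around the 7 genes was compared in the same nuclei as ATAC counts per 1000000 counts in all peaks (ATAC CPM). The windows held 8 peaks around Fn1, 12 around Klf4, 16 around Ms4a6c, 17 around Lyz2, 20 each around F13a1 and Ly86 and 24 around Ccr2. Summed over all 117 peaks, cMoP-like nuclei had 803 ATAC CPM (731 to 880.0) in library 1 and 726 (660.2 to 797) in library 2. Other nuclei had 489 (483 to 495) and 517 (512 to 523), which gives ratios of 1.64 (1.49 to 1.80) and 1.40 (1.28 to 1.54). With only nuclei of 500 genes or more, which left 10 cMoP-like nuclei in library 2, the log2 ratio there was 0.10 (-0.29 to 0.47), an interval that holds 0. By gene, the window ratios ran from 1.40 (F13a1) to 2.15 (Lyz2) in library 1 and from 1.21 (F13a1) to 1.56 (Ccr2) in library 2. The order of the genes by RNA was not kept: the Fn1 window had ratios of 1.59 (1.01 to 2.39) and 1.32 (0.823 to 1.999) beside RNA ratios of 119 and 119. MPP-like nuclei, with 1 Fn1 UMI in each library, had 34.0 and 37.1 ATAC CPM in the Fn1 window, and cMoP-like nuclei 41.3 (26.3 to 61.8) and 36.2 (22.7 to 54.8).

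**Figure D4:**
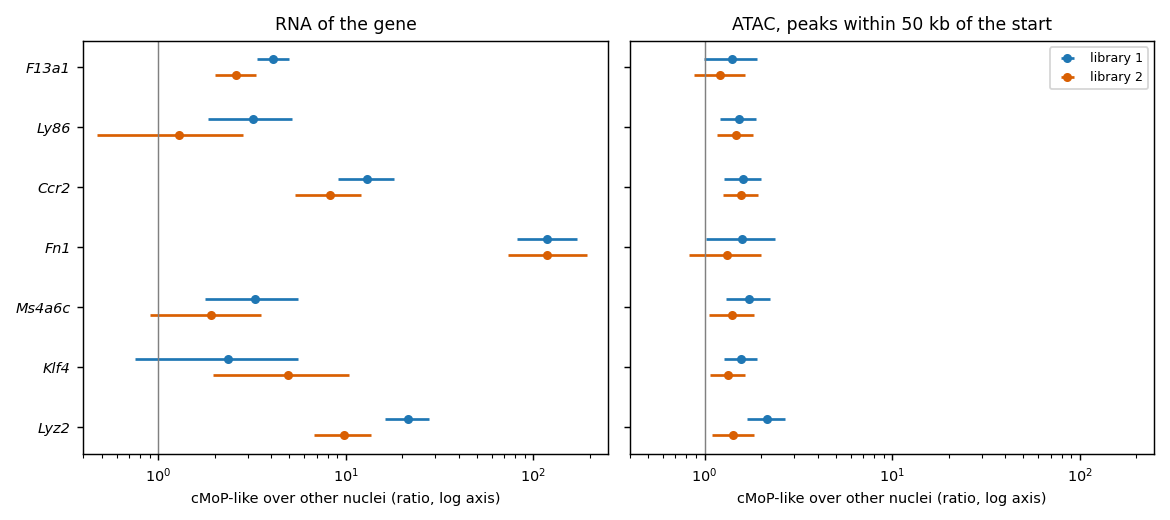
Ratio of cMoP-like over other nuclei (log axis) for the RNA of each gene (left) and the summed peaks within 50 kb of its start (right), with exact 95% intervals, library 1 in blue and library 2 in orange. RNA ratios spread from 1.30 to 119, while window ratios stayed between 1.21 and 2.15.

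For none of the 7 genes did the interval of the class with the highest window lie above that of the next class in either library, so the leading class was not resolved. By the mean of the libraries, cMoP-like nuclei were first for Ccr2, Fn1, Ms4a6c and Lyz2, but each of these windows was higher in another class in 1 of the libraries: in cDCP-like nuclei for Ccr2 in library 1, and in library 2 in MPP-like nuclei for Fn1, B-like nuclei for Ms4a6c and NeuP-like nuclei for Lyz2. The F13a1 window was highest in cDCP-like nuclei, at 87.0 and 85.5 ATAC CPM, against 70.4 (50.3 to 95.8) and 69.9 (50.5 to 94.4) in cMoP-like nuclei, though with overlapping intervals. The F13a1 RNA of cDCP-like nuclei was 395 and 229 CPM. The Ly86 window was highest in pDCP-like nuclei (150 and 173 ATAC CPM), which were also first in Ly86 RNA by the mean of the libraries, and the Klf4 window in B-like nuclei (149 and 198) by the mean of the libraries, with cMoP-like nuclei at 173 and 146. NeuP-like nuclei had the lowest Ms4a6c window in library 1 (11.9) and the lowest Klf4 window in both libraries (24.3 and 47.4). Their Lyz2 window, at 116 and 113 ATAC CPM, was close to that of the cMoP-like nuclei, 135 (107 to 169) and 101 (77.5 to 130). Across the 17 larger classes, log2 RNA and ATAC levels had Pearson's r of 0.71 and 0.57 for F13a1, 0.79 and 0.68 for Ly86, 0.68 and 0.72 for Ccr2 and 0.63 and 0.58 for Lyz2. The r was 0.07 and 0.34 for Fn1, 0.57 and 0.31 for Ms4a6c and 0.32 and 0.82 for Klf4. These are descriptions over classes that share libraries.

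Single peaks were compared where they had at least 200 ATAC counts in all and 10 in cMoP-like nuclei of each library, which 26 of the 117 did. Of these, 6 were at 2-fold or more over other nuclei in both libraries, against 9.67% of the 23619 peaks tested in all. This minimum, the same for all peaks, favours peaks that are open in cMoP-like nuclei, and many intervals of single peaks hold 1. Among the 6, the downstream Ms4a6c peak described below had just the minimum of 10 counts in both libraries. The intronic Ly86 peak had 10 and 11. Their calls were partly set by that minimum, so the count of 6 is a description. The median ratio of the 26 was 2.16 and 1.83, that of all peaks tested 1.26 and 1.22.

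**Figure D5:**
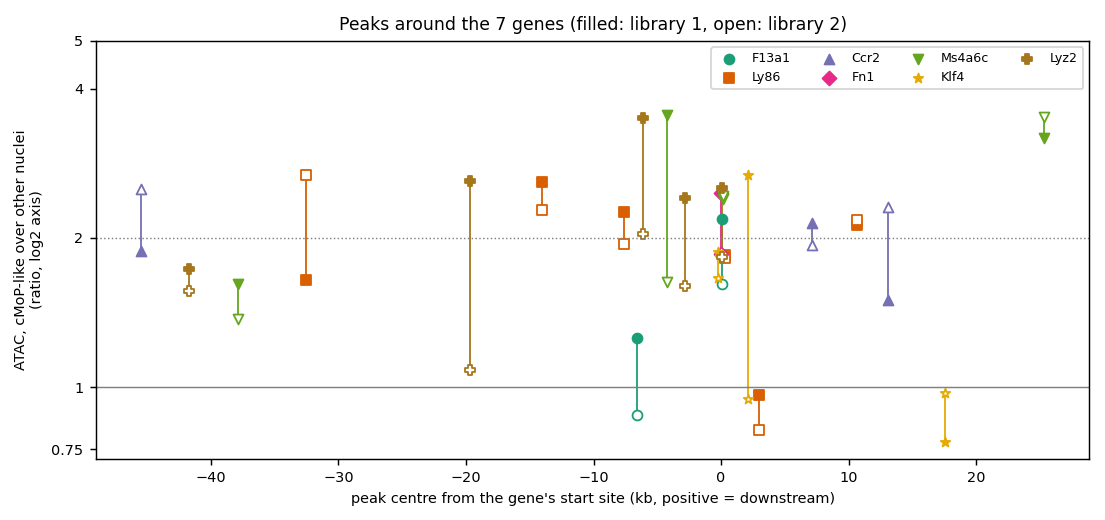
ATAC ratio of cMoP-like over other nuclei (log2 axis) for 24 of the 26 tested peaks by distance of the peak centre from the start site of the gene (kb), with filled symbols for library 1 and open symbols for library 2, joined by a line. The Ms4a6c peak 25.3 kb downstream was at 3.19 and 3.51, and the F13a1 and Klf4 peaks away from their starts lay near or below 1 in library 2.

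Around Ccr2, an intergenic peak 45.5 kb upstream at chr9:124056031-124056934 (GRCm38) had ratios of 1.89 (0.834 to 3.68) and 2.51 (1.38 to 4.20). The cMoP-like nuclei had 14.9 and 23.9 ATAC CPM there, the cDCP-like nuclei 16.3 and 14.9, the NeuP-like nuclei 13.3 and 11.8 and the pro-B-like nuclei 0.93 and 1.31. A peak over an exon of Ccr2 itself, chr9:124112309-124113207, had ratios of 2.14 (1.04 to 3.92) and 1.93 (0.902 to 3.64). The peak over the annotated Ccr2 start, chr9:124101491-124102384, was below the minimum, with ratios of 0.94 (0.067 to 4.10) and 0.41 (0.010 to 2.31). A peak over an exon inside the start-site interval, chr9:124103031-124103935, was also below it. Its ratios were 0.41 (0.030 to 1.78) and 0.48 (0.058 to 1.76), and all 4 of these intervals hold 1.

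Ratios of 3.19 (1.02 to 7.59) and 3.51 (1.12 to 8.37) belonged to a peak 25.3 kb downstream of the Ms4a6c start, in an intron of Gm8369 at chr19:11494245-11495148. In cMoP-like nuclei this peak had just the minimum of 10 counts in both libraries, or 8.79 and 8.23 ATAC CPM. But it had 7.47 and 9.81 in pro-B-like nuclei, where Ms4a6c RNA was at 36.4 and 77.7 CPM, and 0 in EryP-like nuclei. A peak over the Ms4a6c start itself, chr19:11469068-11469915, had ratios of 2.40 (1.03 to 4.78) and 2.44 (1.11 to 4.67), with cDCP-like nuclei at 12.7 and 11.9 beside 14.1 and 14.8 in cMoP-like nuclei. Around Ly86, a peak 14.0 kb upstream at chr13:37330743-37331666 had ratios of 2.60 (1.11 to 5.18) and 2.28 (0.908 to 4.74), and cDCP-like nuclei had 12.7 and 23.0 ATAC CPM beside 14.1 and 11.52 in cMoP-like nuclei. The EryP-like, GMP-like, HSC-like and pro-B-like nuclei stayed at 0 to 3.19 there. A second Ly86 peak, in an intron 10.6 kb downstream of the start at chr13:37355545-37356163, had ratios of 2.13 (0.685 to 5.03) and 2.17 (0.747 to 4.95). The central 300 bases of the Ms4a6c downstream peak and the Ly86 upstream peak, picked after the motif search, are shown with capitals for IRF (GAAANNGAA) and ETS-IRF (GGAANNGAA) letters, the site types of the factors named above. They cover chr19:11494547-11494846 and chr13:37331055-37331354, plus strand of GRCm38.
Ms4a6c downstream peak: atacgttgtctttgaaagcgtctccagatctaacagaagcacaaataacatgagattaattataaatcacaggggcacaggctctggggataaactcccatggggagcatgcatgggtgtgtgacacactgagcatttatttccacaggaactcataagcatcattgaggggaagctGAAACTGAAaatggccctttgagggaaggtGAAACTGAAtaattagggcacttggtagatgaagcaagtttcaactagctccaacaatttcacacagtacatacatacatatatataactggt
Ly86 upstream peak: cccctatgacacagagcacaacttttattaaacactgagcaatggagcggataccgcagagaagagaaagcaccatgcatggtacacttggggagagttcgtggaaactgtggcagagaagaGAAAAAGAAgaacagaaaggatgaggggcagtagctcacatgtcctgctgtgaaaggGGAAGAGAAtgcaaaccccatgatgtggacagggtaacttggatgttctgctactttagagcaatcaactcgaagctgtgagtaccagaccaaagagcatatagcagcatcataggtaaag

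The Ms4a6c peak held 2 IRF matches, and the Ly86 peak held 1 IRF and 1 ETS-IRF match. Of all peaks, 11% held the IRF letters and 12.6% the ETS-IRF letters in their central 300 bases, over 174274 peaks read on both strands. The other motifs searched were TGTGGT for RUNX factors (29.7% of peaks), TGANTCA for AP-1 (11.4%), GAGGAAG for PU.1 (23.7%), TTGCNNAA for C/EBP (14.2%) and CCACCC for KLF factors (26.2%), and none of these is in the 2 sequences shown. The intronic Ly86 peak held 1 AP-1 and 1 KLF match and no IRF or ETS-IRF match. Among the 16 peaks chosen around the 7 genes, 3 held the IRF letters (18.75%), as many as held each of the others but RUNX, which 4 held. Such matches describe letters and not bound sites.

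At Lyz2, the peak over the start site, chr10:117281827-117282677, had 21.1 and 16.5 ATAC CPM in cMoP-like nuclei, 22.1 and 14.8 in NeuP-like nuclei and 3.36 and 2.61 in EryP-like nuclei. The cDCP-like nuclei, with little Lyz2 RNA, had 5.66 and 12.6. A peak 6.13 kb upstream, over an exon of Lyz1, had ratios of 3.495 (1.84 to 6.05) and 2.04 (0.925 to 3.90). NeuP-like nuclei had 9.28 and 9.04 ATAC CPM at it, GMP-like nuclei 9.82 and 10.2, and HSC-like and EryP-like nuclei 1.19 to 2.12, whereas Lyz2 RNA in GMP-like nuclei was 7.09 and 46.3 CPM. The 81 bases upstream of the Lyz2 start, chr10:117282322-117282402, are shown on the plus strand of GRCm38 with capitals for the RUNX letters TGTGGT on either strand. Lyz2 is read from the minus strand, so its transcript begins left of the first base. The central 300 bases of this peak also held 1 IRF and 1 ETS-IRF match, both outside the bases shown.
Lyz2 start: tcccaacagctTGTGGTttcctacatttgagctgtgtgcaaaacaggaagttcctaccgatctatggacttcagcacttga

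The Fn1 start peak, chr1:71652769-71653653, had 34.3 and 28.8 ATAC CPM in cMoP-like nuclei, ratios of 2.46 (1.48 to 3.84) and 1.86 (1.09 to 2.97), but also 17.7 and 16.2 in pro-B-like nuclei and 20.6 and 15.9 in HSC-like nuclei, where Fn1 RNA was at 0 to 11.52 CPM. It also covers the start of Apol7d on the other strand. NeuP-like nuclei had 2.21 and 3.84 there, the lowest of the classes read. Near the F13a1 start, the peak at chr13:37048779-37049668 had 10.6 and 9.87 ATAC CPM in cMoP-like nuclei, with ratios of 2.18 (0.795 to 4.81) and 1.61 (0.588 to 3.54), whose intervals hold 1. The other F13a1 start peak was below the minimum, at 0 and 3.29 ATAC CPM in cMoP-like nuclei and highest in pro-B-like nuclei among the classes read (10.5 and 7.58). Klf4 had the start peak with the most counts, 15083, at chr4:55532261-55533138. Its ATAC level was 117 and 97.9 CPM in cMoP-like nuclei, 79.9 and 95.1 in cDCP-like, 15.9 and 27.1 in NeuP-like nuclei and 70.4 and 72.4 in pro-B-like nuclei, while its RNA was at most 212 CPM in any class.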

How the data were processed

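Bone marrow Lin-cKit+ nuclei were profiled by 10x multiome sequencing. The authors deposited raw counts, UMIs per gene and ATAC counts per peak, with no normalization. Tools named in the submitters' processing notes are Cell Ranger ARC 2.0.0, Seurat 4.0.3 and Signac 1.3.0, and the build is GRCm38. How intronic reads were handled is not given in the sources used.

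Only barcodes with 200 or more genes detected and between 1000 and 50000 ATAC counts were used, 13619 of 18961. Nuclei were clustered without the 7 genes and their peaks (30 principal components, LSI components 2 to 30, anchors between libraries, weighted nearest neighbours, resolution 0.8; Seurat 5.3.0, R 4.3.3). The members and lists were chosen with earlier results of these data known. Clusters were named when at least 3 markers were raised by a log2 ratio of 1 with 10 UMIs, the list's mean was at least 1 and no other list had more markers among the 10 leading genes, a rule completed after marker tables had been viewed. The 7 genes were not left out of these leading genes, and Fn1 was among those of the cMoP-like cluster. Scrublet (scanpy 1.11.5) called 3 doublets, 0.022% of nuclei, so it had not worked, and none were removed. ATAC counts were halved for Poisson intervals, since counts come in pairs. The ratio and interval scripts were tested on simulated data. Genes to name were all 7 members, the 3 most similar genes each, the list by role, and per gene the peak nearest to the start and the 2 with the largest ratios. Annotation is GENCODE M21, which holds 99.6% of the gene IDs. A count of 0 was taken to allow up to 3 counts. Results at 1 gene next to a member, with the peaks inside it, are not reported here.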

Additional observations from a re-analysis of the deposited data

How the results depend on the processing

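With 1 library per suffix and no replicates, no library could be left out, and each is given on its own. No paired analysis was possible because the groups hold 1 sample each and no result comes from a test. Resolution 0.4 or 1.2, no correction between libraries, keeping the 7 genes in the clustering, removing the top 8% of doublet scores and using only peaks with 200 counts left every summed level and ratio within its counting interval, and the other clusterings gave 142 to 151 cMoP-like nuclei, of which 139 to 149 were among the 149. The doublet scores came from the Scrublet run that had not worked, and their cut took out 3 and 5 cMoP-like nuclei. That setting therefore cannot tell whether doublets matter. The number of genes at 4-fold or more stayed at 3 in the 7 settings that bear on RNA. Dividing by all UMIs lowered the summed RNA level in cMoP-like nuclei to 2966 and 1663 CPM. Taken per nucleus and scaled by the library's mean ATAC count, the summed ATAC level was 670.5 and 653 and its log2 ratio 0.45 and 0.34. A window of 10 kb lowered the level to 397 and 337 and turned the Ccr2 log2 ratio in library 2 to -0.091 (-1.02 to 0.703), an interval that holds 0. At 500 genes or more, which left 38 and 10 cMoP-like nuclei, library 2 moved to 2600 CPM of RNA (log2 ratio 1.64) and 547 ATAC CPM. The ATAC log2 ratio was then 0.10 (-0.29 to 0.47), an interval that holds 0, so the higher summed window of library 2 was not kept. The ATAC log2 ratios of Klf4 and Lyz2 there turned to -0.98 (-2.42 to 0.148) and -0.29 (-1.73 to 0.840), with intervals that also hold 0. The RNA log2 ratio of Ms4a6c in library 2 also went below 0 there, to -0.31, from 0.93 with an interval that held 0. The cause was not tested, and Ly86 then had no UMI in those 10 nuclei. Depth limits Klf4, Ms4a6c and Ly86 most, with 5 to 17 UMIs in the cMoP-like nuclei of a library.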
